A study of Mus musculus with 12 samples.

Results

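The cell cycle and mitosis genes described here are 40 listed mouse genes of DNA synthesis and cell division, read from a table of raw gene counts for whole liver. Each listed symbol was matched to 1 Ensembl identifier, and all 40 were found among the 56923 identifiers in the table. The rule itself uses no measured value. Of the 40, 38 passed the filter on low counts and entered the tests, whereas Ccnb1 and Cdc25c did not. The comparisons ask how these genes differed between 3 doses of curcumin and no curcumin, with and without the second control library, and how they varied from mouse to mouse.

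The 12 libraries came from wild-type C57BL/6J mice that were 6 weeks old at the start. All 12 mice were given carbon tetrachloride, a solvent that kills hepatocytes and is used to produce liver injury and scarring, as a 7.5% solution in olive oil, 200 uL into the peritoneum, 2 times a week for 6 weeks. The control group (n = 3) had carbon tetrachloride alone, and the low, medium and high groups (n = 3 each) also had curcumin, the main pigment of turmeric, by gavage at 25, 50 or 100 mg/kg every day for 2 weeks. No mouse was left without carbon tetrachloride, so no level here can be set against uninjured liver. A gavage of vehicle in the control mice, and the order of the weeks of curcumin and of carbon tetrachloride, are not given in the sources used here. The labels call the libraries biological replicates. Mice were housed 3 to a cage without a record of which, so that cage and group may coincide and cannot be told apart, and p-values measure only the spread between these mice.

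Library totals ran from 36015134 to 70376474 counts, and levels are given as CPM, the counts per 1e+06 of the library size after scaling by the trimmed mean of M-values (TMM). Mitochondrial genes held between 30.25% (high 1) and 64.68% (high 2) of the counts. That share leaves out near-identical copies of these genes, such as Gm10925 with 29992089 counts beside 29603918 for mt-Atp6. Totals described below as without mitochondrial genes leave out such copies as well. TMM library sizes ran from 25.63 (low 1) to 108 (high 1) in units of 1e+06 counts, so that 3 counts stood for 0.0278 to 0.117 CPM. All 12 hepatocyte markers passed the filter, with a summed level of 6260 to 50300 CPM. In every library fewer genes had 2 counts than 3 or 4 counts (446 against 705 and 609 in control 1), so 1 count may not be 1 sequenced fragment, which was not tested.

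A cell that divides passes from G1, when D and E cyclins with their kinases release E2F transcription factors, through S phase, when the MCM helicase opens the DNA and PCNA clamps the polymerases to it, into mitosis, which is driven by CDK1 with A and B cyclins. Genes of S phase are read mainly under E2F control, and genes of mitosis later, under the MuvB complex with B-MYB and FOXM1. The hepatocytes of adult liver are nearly all at rest and re-enter the cycle after injury, and in whole tissue the same transcripts also come from dividing immune, endothelial and mesenchymal cells.

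Promoters of 5 members are shown, because their levels carry the comparisons: Mki67 and Top2a, the usual markers of dividing cells, Cenpa and Ccne1, which were lowest at the higher doses, and Rrm2, whose levels were higher. Each line gives the 250 bases before the annotated start, 5' to 3' in the direction of the gene, from RefSeq on build GRCm38.p6. Capitals mark TTTGAA, the cell cycle homology region (CHR) element bound by MuvB complexes, and CCAAT, the NF-Y box, on either strand, so that TTCAAA and ATTGG are the same motifs read from the other strand.
Mki67, chr7:135716380-135716629, minus strand: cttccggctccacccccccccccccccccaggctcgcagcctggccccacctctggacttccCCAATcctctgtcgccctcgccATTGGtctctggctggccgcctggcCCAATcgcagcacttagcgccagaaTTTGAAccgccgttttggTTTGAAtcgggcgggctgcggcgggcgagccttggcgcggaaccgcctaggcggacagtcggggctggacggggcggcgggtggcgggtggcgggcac
Top2a, chr11:99024190-99024439, minus strand: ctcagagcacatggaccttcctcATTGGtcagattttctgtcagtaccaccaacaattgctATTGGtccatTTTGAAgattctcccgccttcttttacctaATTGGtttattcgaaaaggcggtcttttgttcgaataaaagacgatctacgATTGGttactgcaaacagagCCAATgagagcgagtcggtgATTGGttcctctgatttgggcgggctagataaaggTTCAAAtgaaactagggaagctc
Cenpa, chr5:30666636-30666885, plus strand: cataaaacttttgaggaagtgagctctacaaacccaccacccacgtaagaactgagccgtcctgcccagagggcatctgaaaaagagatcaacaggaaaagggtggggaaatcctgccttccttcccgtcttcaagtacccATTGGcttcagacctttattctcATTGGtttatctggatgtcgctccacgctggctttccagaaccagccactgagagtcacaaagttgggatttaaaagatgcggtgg
Ccne1, chr7:38107491-38107740, minus strand: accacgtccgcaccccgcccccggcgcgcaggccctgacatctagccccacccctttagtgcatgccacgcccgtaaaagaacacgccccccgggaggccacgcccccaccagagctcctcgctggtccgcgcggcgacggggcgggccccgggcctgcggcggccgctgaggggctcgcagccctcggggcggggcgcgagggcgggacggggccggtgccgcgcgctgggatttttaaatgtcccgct
Rrm2, chr12:24708004-24708253, plus strand: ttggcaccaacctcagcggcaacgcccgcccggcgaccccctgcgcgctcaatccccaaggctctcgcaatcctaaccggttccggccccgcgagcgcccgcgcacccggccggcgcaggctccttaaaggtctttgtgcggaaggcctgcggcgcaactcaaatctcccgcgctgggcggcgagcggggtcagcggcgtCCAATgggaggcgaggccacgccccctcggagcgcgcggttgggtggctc

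In the Mki67 stretch, TTTGAA begins at positions -116 and -98 from the start and CCAAT at -188, -166 and -141. Top2a holds TTTGAA at -179 and -23 with 6 CCAAT boxes, and Cenpa holds CCAAT at -109 and -86, with its TTTGAA after the start and outside the printed bases. Rrm2 holds 1 CCAAT box at -50, and in Ccne1 neither letter string was found.

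Of the 40 members, 31 had a promoter in the RefSeq table, taken as 250 bases before to 50 after the start, whereas Aurkb, Ccna2, Ccnd1, Ccne2, Cdc25c, Foxm1, Kif20a, Mcm4 and Tpx2 had no entry. TTTGAA was in 15 of the 31 (48.4%), against 17.9% of all 32851 promoters of that length. It was in 14 of 19 members of the mitotic roles and proliferation markers (73.7%) and in 1 of 12 of the G1 and S phase roles (8.33%), that one being Mcm2. CCAAT was in 25 of 31 (80.6%) against 37.4% of all promoters. The E2F strings TTTGGCGC, TTTCGCGC, TTTCCCGC and TTTGCCGC, searched on both strands and able to overlap one another, were in 5 of 31 (16.1%) against 2.26%: Mcm3, Mcm5, Mcm6, Mcm7 and Cdk1. A match describes these letters only.

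The members were rare transcripts in these livers. Mean levels over the 12 libraries were under 1 CPM for 28 of the 40 members and at or above 1 CPM for 12. Per kilobase of transcript, the highest mean level was that of Ccnd1, cyclin D1 of G1, at 4.25 CPM per kb, followed by the centromeric histone Cenpa at 2.51, the clamp Pcna at 2.30 and the helicase subunit Mcm7 at 1.96. The next gene, the mitotic cyclin Ccnb2, was at 0.672 CPM per kb, and Mki67, Top2a and the mitotic kinase Cdk1 were at 0.115, 0.100 and 0.113. The lowest were Cenpf at 0.0132, Bub1 at 0.0204, Cdc25c at 0.0212 and Ccnb1 at 0.0289 CPM per kb.

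21 members had counts in every library and 19 had at least 1 library at 0. Zeros made up 10 of 120 member values in the control group (8.33%), 24 in the low group (20%), 7 in the medium group (5.83%) and 9 in the high group (7.5%). 13 of the zeros were in low 1, the library with the smallest size, where 3 counts equal 0.117 CPM, and the part of depth in the low group's zeros was not tested. In bulk tissue, fewer cells of a type and less RNA per cell cannot be told apart.

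**Figure D1:**
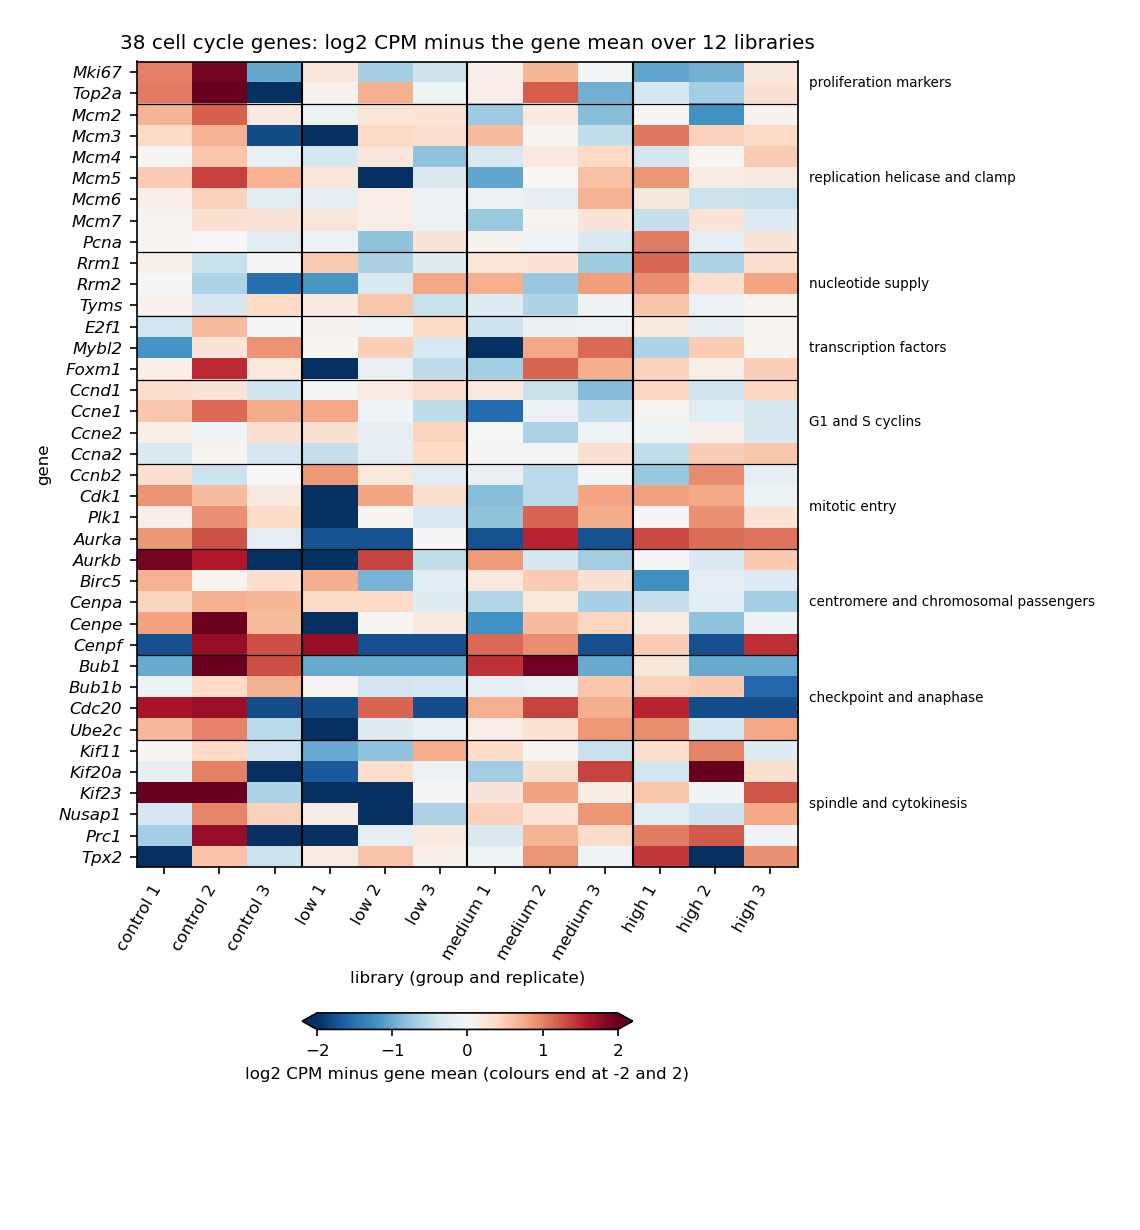
Heat map of the 38 members that passed the filter (rows, grouped by role) in the 12 libraries (columns, grouped by dose). Colour is log2 CPM minus the gene's mean over the libraries, with red above it, blue below it and colours ending at -2 and 2. Control 2 is the reddest column, with a median deviation of 0.703.

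The member lists leaned low at each dose, but no member passed the test. With edgeR's quasi-likelihood test and Benjamini-Hochberg adjustment, 0 of 38 members and 0 of 16839 genes (0%) had an adjusted p under 0.05 in the low, medium and high comparisons, in the slope on dose and in the test of any difference among the 4 groups. At an unadjusted p under 0.05, 2, 3 and 4 members were past the line at the low, medium and high dose, beside 1008 (5.99%), 940 (5.58%) and 2152 (12.8%) of all genes. The slope had 5 such members beside 1853 genes (11%), and the test of any difference had 2 beside 1021 (6.06%). DESeq2, run as an alternative, called 32, 80 and 157 genes at the 3 doses, 60 for the slope and 149 for any difference, with 0 members among them.

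At the low dose 29 of 38 members had a fitted level below control and 9 above, with a median log2 fold change of -0.512, where the median of all genes was 0.0143 and 48.9% of them were lower. At the medium dose 28 were lower and 10 higher, with a median of -0.261 beside 0.0206 for all genes. At the high dose 24 were lower and 14 higher, with a median of -0.216 beside 0.033. The 3 comparisons share the same control libraries. Marker genes of liver cell types were counted in the same fits. At the low, medium and high dose 10, 9 and 8 of 10 neutrophil, 12, 11 and 8 of 12 Kupffer cell and 13, 12 and 10 of 14 B and plasma cell markers were lower than control, and 12 of 12 hepatocyte markers were higher at each dose on the TMM scale (11, 10 and 11 on totals without mitochondrial genes). With library totals those counts were 10, 9 and 7, then 11, 10 and 6, then 12, 10 and 9, and again 12 higher hepatocyte markers. Without control 2 they were 10, 7 and 7, then 9, 11 and 6, then 12, 9 and 10, with 12 higher hepatocyte markers. The other lists were mixed on the TMM scale with all 12 libraries. Lower at rising doses were 9, 9 and 10 of 14 T and NK cell and 10, 10 and 6 of 12 recruited macrophage markers. So were 8, 6 and 8 of 9 erythroid and 3, 4 and 4 of 4 neutrophil precursor markers. For cholangiocytes it was 5, 5 and 2 of 6, for sinusoidal endothelium 2, 3 and 2 of 10. For stellate cells and fibroblasts it was 7, 9 and 1 of 13. Summed per library, the hepatocyte markers ran from 6720 to 13300 CPM in control. They ran from 6260 to 36600, 8740 to 28800 and 6540 to 50300 CPM at rising doses, so every dose group overlapped the controls. By edgeR 0 of the markers in these lists were called, and their part in the members' lean was not tested. With library totals in place of TMM the split turned to 11 lower and 27 higher at both the medium and high dose, while the median of all genes moved to 0.465 and 0.707, so that the members' median minus that of all genes was -0.342 and -0.281. On a scale of totals from which mitochondrial genes were left out, 35, 32 and 28 members were lower at rising doses, with the median of all genes at -0.137, -0.0805 and -0.241.

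On the TMM scale, few members separated the groups fully. All 3 low libraries lay below all 3 controls for 5 members (Mcm5, Foxm1, Plk1, Cenpa and Cenpe) and above them for 0, a share of 13.2% on the lower side, where 6.36% of all genes were lower in this way and 7.41% higher. At the medium dose 3 members lay below (Ccne1, Cenpa and Cenpe, 7.89%) and 0 above, beside 6.38% and 7.61% of all genes. At the high dose 5 lay below (Mcm2, Ccne1, Birc5, Cenpa and Cenpe, 13.2%) and Rrm2 alone lay above, beside 6.52% and 6.47%. Cenpa and Cenpe, which both sit at the centromere, are the 2 members below control without overlap at every dose (5.26% of 38), beside 202 of all genes (1.2%). With library totals as the scale both overlapped the controls at each dose.

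Mki67 (ENSMUSG00000031004), the proliferation antigen that coats mitotic chromosomes, was at 1.94, 3.66 and 0.446 CPM in the control libraries, at 1.13, 0.587 and 0.695 in the low group, at 1.02, 1.51 and 0.919 in the medium group, and at 0.445, 0.470 and 1.11 in the high group. The controls held the highest library, while control 3 was as low as the lowest libraries of the high group, so every dose group overlapped them. The control mean of 2.01 ± 1.61 CPM (SD, n = 3) had the widest spread of the 4 groups, against 0.804 ± 0.288, 1.15 ± 0.319 and 0.675 ± 0.377 at rising doses. The log2 fold change was -1.35 ± 0.63 (SE) at the low dose, -0.81 ± 0.61 at the medium and -1.58 ± 0.62 at the high dose, with edgeR adjusted p of 0.822, 0.997 and 0.377. Over 100 mg/kg the fitted slope was -1.35 ± 0.60 (edgeR adjusted p = 0.436).

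Top2a (ENSMUSG00000020914), the topoisomerase that untangles sister DNA, was at 0.780, 1.75 and 0 CPM in the controls, at 0.390, 0.615 and 0.342 in the low group, at 0.403, 0.888 and 0.171 in the medium group, and at 0.278, 0.211 and 0.460 in the high group. Again control 2 was highest and control 3 lowest, here at 0 counts. Its log2 fold changes of -0.93 ± 1.02, -0.80 ± 1.00 and -1.42 ± 1.02 had edgeR adjusted p of 0.903, 0.997 and 0.546.

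Of the 7 genes of the replication helicase and clamp, 7, 5 and 5 were lower than control at the low, medium and high dose on the TMM scale, but 6, 2 and 1 with library totals as the scale, and 7, 7 and 5 with totals without mitochondrial genes. None of them (0 of 7) passed the test by edgeR at any dose. Mcm2, a helicase subunit, was at 0.956, 1.39 and 0.669 CPM in the controls, at 0.546, 0.699 and 0.717 in the low group, at 0.341, 0.673 and 0.311 in the medium group, and at 0.602, 0.235 and 0.618 in the high group. On the TMM scale the high group lay below the controls without overlap, and the medium group overlapped them by 1 library. With library totals the high group overlapped too, high 1 holding 65 counts against 30 in control 3, whose total was larger. Its log2 fold changes were -0.62 ± 0.48, -1.19 ± 0.48 and -1.04 ± 0.48 (edgeR adjusted p = 0.876, 0.823 and 0.392), and the slope was -1.0 ± 0.45 (adjusted p = 0.441). With library totals the high value was -0.23 and the slope -0.15, and without control 2 the low value was -0.30.

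The other helicase subunits did not share that pattern. Mcm5 was at 0.428, 0.801 and 0.491 CPM in the controls and at 0.351, 0 and 0.232 in the low group, whereas Mcm3 was highest in high 1 at 1.33 and Mcm6 in medium 3 at 2.02. Mcm7, the most abundant subunit, ranged only from 3.39 to 7.04 CPM over all libraries. Mcm7 exons overlap Ap4m1 on the opposite strand by 321 bases and Cops6 by 64, and since the strand setting of the counting was not given in the sources used here, reads of these genes cannot be told apart.

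Pcna, the sliding clamp, was at 3.47, 3.34 and 2.85 CPM in the controls, at 3.12, 1.90 and 4.02 in the low group, at 3.50, 3.14 and 2.71 in the medium group, and at 6.88, 2.91 and 4.01 in the high group. High 1 stood above the other 11 libraries, and of the other 2 high libraries 1 lay within the control range and 1 above it. The log2 fold change at the high dose was 0.52 ± 0.34 (edgeR adjusted p = 0.503), and the slope of 0.56 ± 0.30 (adjusted p = 0.479) was 0.117 without high 1. A near-identical copy, Pcna-ps2, with 99.2% identity, held 107 counts beside 2724 for Pcna, so the split of reads between Pcna and its copy is uncertain.

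The 3 genes of nucleotide supply had 3 of 3 above control at the low and high dose and 2 of 3 at the medium dose, whereas 1, 1 and 2 were above on totals without mitochondrial genes, and the same numbers without control 2. Of the 3, 0 passed the test by edgeR. Rrm2 (ENSMUSG00000020649), the small subunit of ribonucleotide reductase, was at 0.805, 0.529 and 0.268 CPM in the controls, at 0.351, 0.671 and 1.43 in the low group, at 1.38, 0.474 and 1.5 in the medium group, and at 1.60, 1.03 and 1.46 in the high group. On the TMM scale all high libraries lay above all controls, while the low and medium groups each had at least 1 library within the control range. With library totals as the scale high 2, with 44 of 67695784 counts, lay below control 1, with 32 of 42917049. The means of 0.534 ± 0.269, 0.819 ± 0.556, 1.12 ± 0.559 and 1.36 ± 0.296 CPM (SD, n = 3) are in order of dose from control, and the high mean was 255% of the control mean. The log2 fold changes were 0.67 ± 0.58, 1.07 ± 0.58 and 1.36 ± 0.58, with edgeR adjusted p of 0.878, 0.981 and 0.384, and the slope was 1.27 ± 0.53 (adjusted p = 0.434). The low value rests on low 3, without which it was -0.0471.

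Rrm1, the large subunit of the same enzyme, did not separate the groups. It was at 1.43, 0.952 and 1.34 CPM in the controls and at 2.96, 0.846 and 1.66 in the high group, so that the high group held both a library above and a library below all controls. Tyms, which makes thymidylate, ranged from 1.22 to 2.80 CPM with all groups overlapping.

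Among the transcription factors, E2f1, which drives S phase genes, ranged from 0.434 to 0.922 CPM with its highest level in control 2. Foxm1, which drives mitotic genes, was at 0.378, 1.03 and 0.401 CPM in the controls and at 0, 0.307 and 0.232 in the low group, a log2 fold change of -1.67 ± 0.81 (edgeR adjusted p = 0.823). Without control 2 the Foxm1 values were -1.04 at the low, 0.46 at the medium and 0.21 at the high dose. The medium and high groups of Foxm1 overlapped the controls, at 0.201 to 0.811 and 0.376 to 0.491 CPM. Mybl2, which encodes B-MYB, had both its lowest and its highest level within the medium group, at 0.155 and 1.64 CPM.

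Of the cyclins of G1 and S phase, Ccnd1 was the most abundant member, at 19.5, 18.3 and 11.7 CPM in the controls, at 15.1, 17.2 and 19.3 in the low group, at 17.5, 11.3 and 8.38 in the medium group, and at 20.5, 11.6 and 20.5 in the high group. These groups overlapped throughout, with log2 fold changes of 0.06 ± 0.32, -0.42 ± 0.32 and 0.09 ± 0.32. Ccnd1 exons overlap those of LTO1 on the opposite strand by 1100 bases.

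Ccne1 (ENSMUSG00000002068), cyclin E1, which starts S phase with CDK2, was at 1.08, 1.66 and 1.25 CPM in the controls, at 1.29, 0.699 and 0.507 in the low group, at 0.232, 0.673 and 0.514 in the medium group, and at 0.769, 0.634 and 0.586 in the high group. On the TMM scale every medium and high library lay below every control, and the low group overlapped by 1 library. With library totals the high group overlapped the controls instead, high 1 holding 83 counts against 56 in control 3, whose total was larger. On that scale every low library lay below every control. Means were 1.33 ± 0.299 CPM in control against 0.831 ± 0.407, 0.473 ± 0.223 and 0.663 ± 0.0946 at rising doses (SD, n = 3), and the medium mean was 35.6% of control. The log2 fold changes were -0.71 ± 0.46, -1.49 ± 0.46 and -1.0 ± 0.45, and the edgeR unadjusted p at the medium dose was 0.00685 with an adjusted p of 0.642.

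The second E cyclin, Ccne2, differed less, at 1.21, 1.06 and 1.38 CPM in the controls against 1.10, 0.704 and 1.03 in the medium group and 1.03, 1.17 and 0.872 in the high group. Its log2 fold changes were 0.09 ± 0.31, -0.36 ± 0.31 and -0.25 ± 0.31, and its exons overlap Ints8 on the opposite strand by 609 bases. Ccna2, cyclin A2 of S phase and G2, had group means of 1.10 ± 0.177, 1.21 ± 0.394, 1.33 ± 0.183 and 1.49 ± 0.538 CPM (SD, n = 3) from control to the high dose, with overlap at each step. Its medium log2 fold change was 0.28 ± 0.36 (edgeR adjusted p = 0.997), 0.682 with library totals and 0.156 without medium 3. Ccna2 exons overlap Exosc9 on the opposite strand by 510 bases, with 1722 counts for Exosc9 beside 925 for Ccna2. Cyclins E1 and A2 leaned in opposite directions, neither past the test.

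The genes of mitotic entry ranged from Cdc25c, with 28 counts over the 12 libraries, to Ccnb2, with 651. Cdk1, the mitotic kinase, was at 0.755, 0.619 and 0.446 CPM in the controls, at 0, 0.699 and 0.496 in the low group, at 0.201, 0.260 and 0.701 in the medium group, and at 0.713, 0.681 and 0.364 in the high group. All groups overlapped, and the log2 fold changes were -0.56 ± 0.83, -0.64 ± 0.82 and -0.05 ± 0.81. Its partner Ccnb1 had 56 counts in all, at 0.176, 0.242 and 0.0669 CPM in the controls and between 0 and 0.122 CPM elsewhere, with 5 libraries at 0, so it was not tested.

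Ccnb2, the second B cyclin, was higher per length than Ccnb1 and ranged from 0.556 CPM in high 1 to 1.88 in high 2, both of the same group. Its low log2 fold change was 0.37 ± 0.47 (edgeR adjusted p = 0.917) and rested on low 1, without which it was 0.0168. Plk1, the polo kinase, was at 0.352, 0.635 and 0.424 CPM in the controls and at 0, 0.335 and 0.254 in the low group, while the medium group reached 0.765. Aurka, the spindle pole kinase, had 101 counts in all with 4 libraries at 0. Cdc25c, the phosphatase that switches CDK1 on, had 28 counts with 7 libraries at 0 and was not tested.

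All 5 genes of the centromere and chromosomal passenger roles were lower than control at each of the 3 doses on the TMM scale and on totals without mitochondrial genes, but 5, 3 and 4 were lower at rising doses with library totals and 5, 4 and 4 without control 2. Their median log2 fold change was -0.97, -0.90 and -1.06 on the TMM scale, and 0 passed the test by edgeR. With library totals as the scale the high value of Cenpa, their most abundant gene, was -0.44 ± 0.47. Cenpa (ENSMUSG00000029177), the histone variant that marks centromeres, was at 4.73, 5.73 and 5.51 CPM in the controls, at 4.53, 4.58 and 2.93 in the low group, at 2.29, 4.04 and 2.21 in the medium group, and at 2.51, 3.01 and 2.16 in the high group. On the TMM scale every library with curcumin lay below every control, and the control libraries were close together. With library totals as the scale each dose overlapped the controls. Low 3, medium 2 and high 1 held 266, 264 and 271 Cenpa counts, against 247 in control 3, whose total was larger. Means were 5.32 ± 0.523 CPM in control and 4.01 ± 0.936, 2.85 ± 1.03 and 2.56 ± 0.428 (SD, n = 3), so that the high mean was 48.1% of control.

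For Cenpa the log2 fold changes were -0.41 ± 0.29, -0.90 ± 0.29 and -1.06 ± 0.29, and the slope was -1.05 ± 0.27 over 100 mg/kg. It had the smallest p of the members at the high dose, in the slope and in the test of any difference, at an unadjusted 0.00306, 0.00164 and 0.0105 by edgeR, with adjusted values of 0.352, 0.378 and 0.720. The mitochondrial share moved with Cenpa across the 12 libraries, with a Pearson r of 0.628 (permutation, adjusted p over 38 members 0.181), and its part in the Cenpa values was not tested.

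Cenpe, the kinetochore motor, was far rarer, at 0.352, 0.831 and 0.312 CPM in the controls, at 0, 0.196 and 0.221 in the low group, at 0.0620, 0.306 and 0.265 in the medium group, and at 0.213, 0.0940 and 0.174 in the high group. On the TMM scale it too lay below the controls in every library with curcumin, but with library totals each dose overlapped them. Its log2 fold changes were -1.75 ± 0.93, -1.24 ± 0.90 and -1.61 ± 0.91, and they were -1.17, -0.65 and -1.02 without control 2. Birc5, survivin of the chromosomal passenger complex, was at 1.96, 1.24 and 1.52 CPM in the controls and at 0.491, 1.03 and 0.998 in the high group, while low 1 reached 1.99. Its high log2 fold change was -0.91 ± 0.43 (edgeR adjusted p = 0.401). Aurkb, the kinase of that complex, was at 0.554, 0.438 and 0 CPM in the controls, so that it overlapped every dose group.

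**Figure D2:**
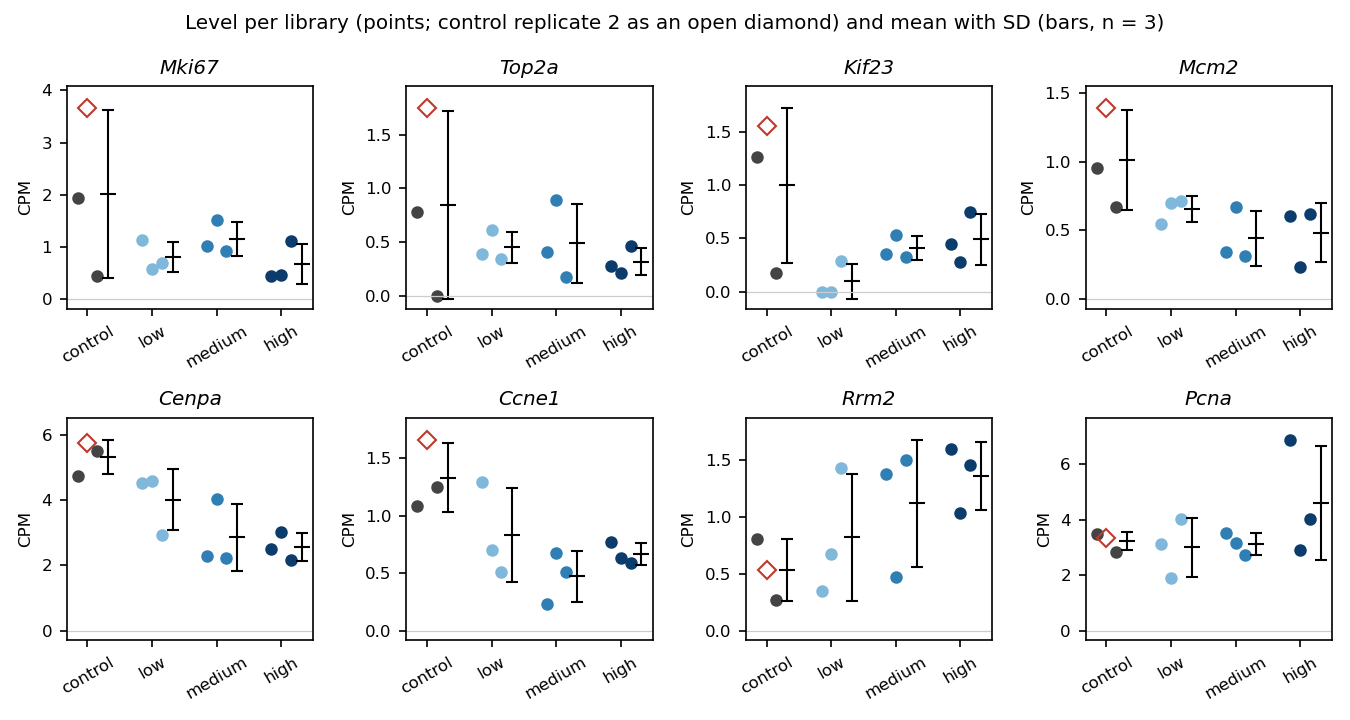
Level in CPM of 8 members in each library (points, with control 2 as an open diamond) and the group mean with SD (bars, n = 3) for control and the low, medium and high doses. Cenpa controls sit at 4.73 to 5.73 with all other libraries below them, whereas the Mki67 controls spread from 0.446 to 3.66 around the dose groups, and Rrm2 reaches 1.03 to 1.60 at the high dose.

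Of the 4 checkpoint and anaphase genes, 4, 4 and 3 were lower than control at the low, medium and high dose on the TMM scale, but 4, 0 and 2 with library totals and 4, 1 and 3 without control 2. Bub1, a kinase of the spindle checkpoint, was at 0 in all 3 low libraries and had 54 counts in all, with the controls at 0, 0.272 and 0.134 CPM, so no fold is given. Bub1b, its partner in the checkpoint, had counts in every library, from 0.0792 to 0.513 CPM. Ube2c, the ubiquitin enzyme of anaphase, was at 0.503, 0.650 and 0.201 CPM in the controls and at 0, 0.251 and 0.276 in the low group. Ube2c exons overlap Tnnc2 on the opposite strand by 592 bases, and Tnnc2, a muscle gene, was at 14.7 CPM in high 1, where Ube2c was at 0.621, and at or below 0.0755 elsewhere. Cdc20, which activates the anaphase ubiquitin ligase, had 5 libraries at 0.

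The spindle and cytokinesis genes split, with 5 of 6 lower at the low dose, 3 of 6 at the medium dose and 2 of 6 at the high dose on the TMM scale, but 4, 1 and 1 with library totals and 2, 1 and 1 without control 2. Kif23, a motor of the central spindle, was at 1.26, 1.56 and 0.178 CPM in the controls, at 0, 0 and 0.287 in the low group, at 0.356, 0.536 and 0.327 in the medium group, and at 0.445, 0.282 and 0.745 in the high group. Control 1 and control 2 stood above all other libraries, while control 3 lay among the treated ones. The low mean was 0.0956 ± 0.166 CPM against 0.998 ± 0.725 in control, and the log2 fold change of -3.03 ± 1.04 had the smallest p of the members at the low dose, at an unadjusted 0.0127 and an adjusted 0.800 by edgeR. The low level of Kif23 rests on the 26 counts of low 3, the other 2 low libraries being at 0, and the fitted value without low 3 (-8.82) sets a group at 0 against the controls and is no measure of size.

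Kif20a, a motor of cytokinesis, was at 0.277, 0.680 and 0 CPM in the controls and at 0.241, 3.03 and 0.412 in the high group. The single library high 2 made the high log2 fold change of 1.88 ± 1.14, which was -0.00983 without it, and the slope of 2.07 ± 0.95 (edgeR adjusted p = 0.444), which was 0.251 without it. Kif20a exons overlap Cdc23 on the opposite strand by 1271 bases, and Cdc23 was at its lowest in high 2, at 2.21 CPM, beside 3.67 to 7.07 elsewhere. Prc1, which bundles the central spindle, was at 0.0503, 0.423 and 0 CPM in the controls, Kif11 and Nusap1 ranged from 0.117 to 0.564 and from 0 to 0.302 CPM, and Tpx2 reached 0.324 CPM at most. Prc1 exons overlap Rccd1 on the opposite strand by 911 bases, with 736 counts for Rccd1 beside 114 for Prc1. Tpx2 had log2 fold changes of 0.67 ± 1.26 at the low and 0.70 ± 1.23 at the medium dose (edgeR adjusted p = 0.945 and 0.997), which were 0.143 and 0.173 without control 1 and 1.87 and 1.9 without control 2. Without control 2 the control level of Tpx2 rests on the 3 counts of control 3, control 1 being at 0.

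Control 2 stood apart within its group for these genes. It held the highest level of 18 of the 40 members, and of 17 of the 38 tested, whereas it was the highest library for 9.8% of all genes tested. High 1 was the highest library for 24.2% of all genes but for 6 members. The median deviation of the tested members from their own means was 0.703 on the log2 scale in control 2, against 0.128 and -0.0191 in the other controls and -0.152 to 0.226 in the libraries with curcumin. The pooled SD of that median within groups was 0.231.

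Of the 11 marker lists of liver cell types, those of neutrophils, Kupffer cells and T and NK cells summed highest in control 2, and the other 8 in other libraries. The summed level of 11 neutrophil markers, of which 10 passed the filter, was 48 CPM in control 2 against 16.7 and 11.8 in the other controls, and 9 of the markers were highest there. The ranges were 7.14 to 9.23 CPM in the low group, 10.2 to 34.4 in the medium group and 10.1 to 15.7 in the high group. Kupffer cell markers summed to 202 CPM in control 2 against 129 and 81.9 in the other controls and 62.7 to 113 with curcumin, T and NK cell markers to 11.2 against 7.4 and 3.88 in the other controls and 4.09 to 7.57 with curcumin. Erythroid markers, 9 of 12 past the filter, summed to 1370 CPM in control 2 against 864 and 185 in the other controls, with 2 of the 12 highest in control 2. Neutrophil precursor markers summed to 8.11 CPM in control 2 against 10.6 in control 3 and 11.7 in high 2, recruited macrophage markers to 46 against 73.3 in high 1, and B and plasma cell markers to 140 against 145 in high 1. Counted singly, 8 of 14 B and plasma cell, 7 of 12 Kupffer cell and 7 of 14 T and NK cell markers were highest in control 2. The same held for 4 of 11 neutrophil precursor and 4 of 12 recruited macrophage markers. Medium 3 had erythroid and neutrophil sums of 1410 and 34.4 CPM with Mki67 at 0.919 CPM. The part of these cells in the members' levels was not tested.

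Without control 2, the lean of the members toward lower levels shrank. At the low dose 27 were lower and 11 higher with a median log2 fold change of -0.228, at the medium dose 20 and 18 with -0.0254, and at the high dose 20 and 18 with -0.0178. The fitted value moved upward for 32 of 38 members in each comparison, and 5, 9 and 6 members went from lower to higher than control. Because control 2 had the highest median member level of the controls, an upward move follows from leaving it out and is no separate result. Nothing was called without control 2 either, with 0 members and 0 genes past the test at each dose by edgeR.

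The omission touched the members unequally. Mki67 went to log2 fold changes of -0.58 ± 0.63, -0.04 ± 0.62 and -0.82 ± 0.62 at the low, medium and high dose, and Top2a to 0.21 ± 1.15, 0.34 ± 1.13 and -0.28 ± 1.13. Cenpa was at -0.36, -0.84 ± 0.33 and -1.0 ± 0.33, Ccne1 at -0.51, -1.29 ± 0.52 and -0.81 ± 0.52, and Rrm2 at 0.66 ± 0.69, 1.06 ± 0.69 and 1.36 ± 0.70. The low value of Kif23 was -2.58. Leaving out this 1 control mouse moved the values of the proliferation markers further than those of Cenpa, Ccne1 and Rrm2. The Top2a values without control 2 rest on control 1, since control 3 was at 0 counts.

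**Figure D3:**
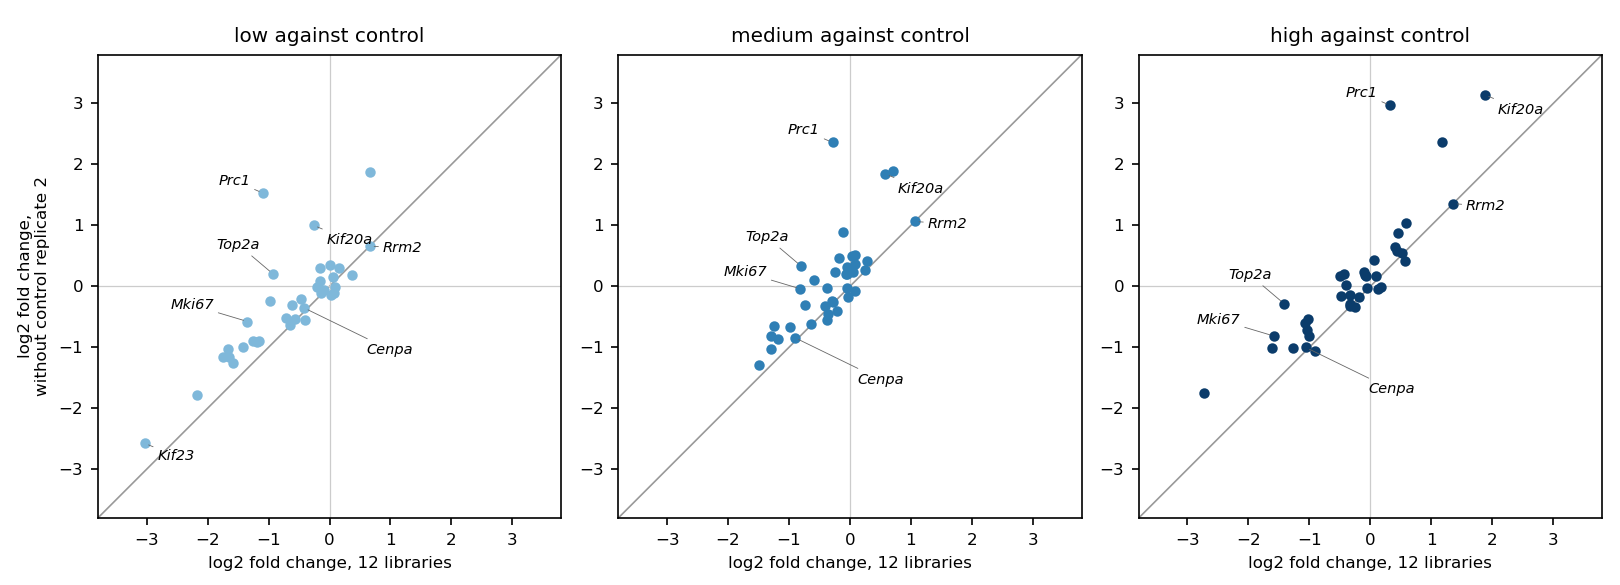
Log2 fold change of each tested member against control in the 12 libraries (horizontal) and without control 2 (vertical), 1 panel per dose, with the line of equal values in grey. Bub1 is left out at the low dose, where all its libraries were at 0. Most points lie above the line, Cenpa and Rrm2 lie near it, and the Prc1 value, which without control 2 rests on 1 control library above 0, lies far above it.

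Across mice, Mki67 was followed by few of the other members. Of the 37 others tested, 27 had a positive Pearson r with Mki67 over the 12 libraries (log2 CPM, prior count 2), and 0 had a permutation p under 0.05 after Benjamini-Hochberg adjustment over the 37. The positive ones were 20 of 37 without control 2 and 37 of 37 with library totals, where 1 member passed by r and 3 by rho. Top2a came first with r = 0.742 and Spearman rho = 0.783 (permutation, adjusted p = 0.233 and 0.142). Its r was 0.645 without control 2 and 0.689 without control 2 and high 1, the libraries farthest from the Mki67 median. Without control 2 Birc5 had the highest r, at 0.672. Mcm2, Birc5 and Kif23 followed at 0.566, 0.517 and 0.501, while Cdk1 was at -0.135 and Tyms at -0.530.

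An r of 0.5 or more was reached by 4 of 37 members (10.81%) and by 5.428% of the 16801 other genes, and without control 2 by 2 members (5.405%) and 4.964% of other genes. The median r of the members went from 0.1924 to 0.008175 when control 2 was left out. Over the 703 pairs of tested members the mean r was 0.0932, with 62.3% of pairs positive, and without control 2 it was 0.0339 with 53.77% positive. The mean over all gene pairs was 0.00416. The points share library scaling and depth, and most members have few counts.

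Outside the members, the genes most like Mki67 were Ifi213 (r = 0.927), Oas1g (0.924), Oas1a (0.908), Lilrb4a (0.905), Arrb2 (0.877), Ptprc (0.876), Adcy7 (0.874), Gvin1 (0.870), Themis2 (0.864) and Ifi209 (0.863), by Pearson r over 12 libraries among genes with a symbol whose log2 CPM averaged 1 or more. Predicted loci and immunoglobulin or T cell receptor segments were left out of that ranking. Ptprc encodes CD45, the antigen common to leukocytes, and Oas1a and Oas1g belong to the interferon-induced oligoadenylate synthetase family. Without control 2 the first 4 were Ifi213 (0.893), Oas1g (0.884), Lilrb4a (0.844) and Oas1a (0.843), followed by Rnpc3 (0.836) and Zfp780b (0.831). Ifi213 and Oas1g thus stood above Top2a in likeness to Mki67 with and without that mouse, although these genes were picked as the highest of many and no test is attached. Top2a, at a mean of 0.524 CPM, lies below the level asked of these genes, so the r values are compared at unlike depth.

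**Figure D4:**
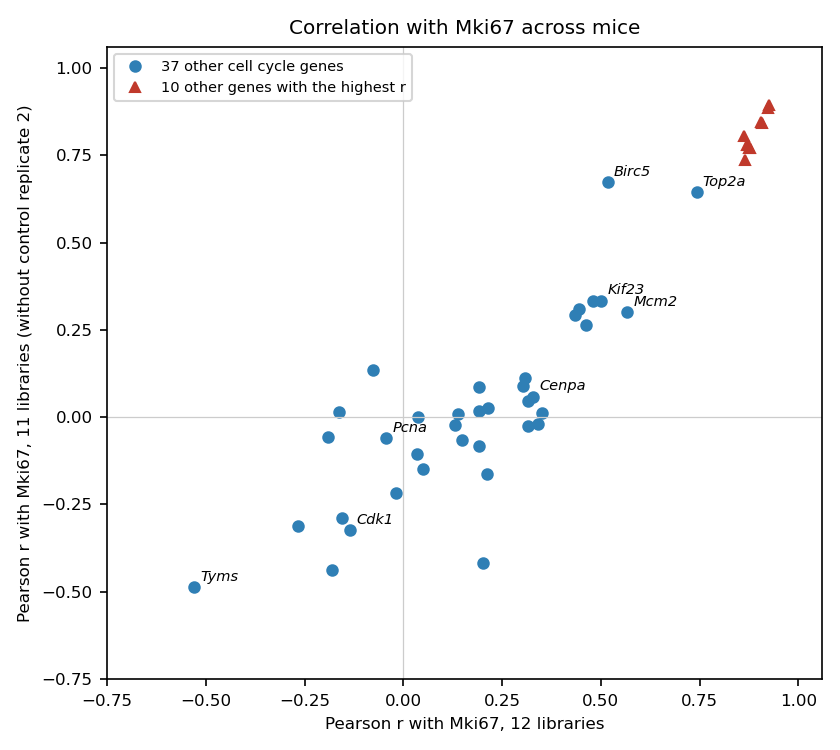
Pearson r with Mki67 over 12 libraries (horizontal) and over 11 libraries without control 2 (vertical) for the 37 other tested members (circles) and for the 10 other genes with the highest r (triangles). Top2a at 0.742 and 0.645 is the member nearest the triangles on the horizontal axis, and Tyms at -0.530 is lowest.

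Mitochondrial share, which varied within and between groups, moved with a few members. Pcna had a Pearson r of -0.866 with the share over 12 libraries (permutation, adjusted p over 38 members 0.00304) and a Spearman rho of -0.853 (permutation, adjusted p = 0.0177). Without high 1 and high 3, the libraries farthest from the median share, r was -0.668. Mcm7 went the other way, with r = 0.800 (permutation, adjusted p = 0.0621) and rho = 0.846 (adjusted p = 0.0177), and Rrm2 had r = -0.670 (adjusted p = 0.177). An absolute r of 0.7 or more was found for 2 of 38 members and for 29.67% of all genes, and Mki67 had r = 0.176.

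Other genes of the same pathways were counted on the TMM scale. Of 51 further S phase genes 46 were tested, and 32, 31 and 32 of them were lower than control at rising doses, with medians of -0.237, -0.197 and -0.28, but 31, 10 and 11 with library totals. Of 85 further mitotic genes 63 were tested, and 48, 45 and 49 were lower, with medians of -0.439, -0.255 and -0.53, but 45, 27 and 27 with library totals and 40, 30 and 40 without control 2. Of 38 genes of the G1 kinases and cell cycle brakes 36 were tested, and 21, 18 and 18 were lower, with medians of -0.142, -0.0177 and -0.019, but 18, 5 and 3 with library totals. Of 24 growth factors and receptors 22 were tested, and 12, 13 and 9 were lower, with medians of -0.0618, -0.165 and 0.0925, but 7, 3 and 3 with library totals and a high median of 0.866. In each list 0 genes were called at any dose by edgeR.

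Among further S phase genes the clamp loader subunit Rfc3 had log2 fold changes of -0.94 ± 0.27, -0.75 ± 0.27 and -0.83 ± 0.27 at the 3 doses. Pola2, a subunit of the primase complex, was at -0.72 ± 0.30 at the medium and -0.80 ± 0.30 at the high dose, and Gins1 at -1.01 ± 0.40 at the low dose. Usp1, a deubiquitinase that acts on PCNA, was at 0.44 ± 0.27 at the low and 0.95 ± 0.27 at the medium dose. Dut at the low dose, Blm at the medium dose and Gins4 at the high dose were among the genes with the smallest p on the higher side, at 0.53 ± 0.36, 0.67 ± 0.43 and 0.27 ± 0.26.

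Among further mitotic genes, Hmgb2, a chromatin protein, was at -0.92 ± 0.24 and the condensin subunit Smc4 at -0.97 ± 0.30 at the high dose. Spag5 was at -3.14 ± 1.06 and Cdca3 at -1.05 ± 0.38 at the low dose, where Ccnf, cyclin F, was at 0.76 ± 0.34 and Pttg1, securin, at 0.63 ± 0.79. At the medium dose Cks2 was at -0.62 ± 0.23, Spc25 at -0.95 ± 0.54, Cenpm at 1.21 ± 0.63 and Cks1b at 0.51 ± 0.39. Cks1b was at 0.68 ± 0.39 and Tubb5 at 0.74 ± 0.40 at the high dose.

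Of the regulators of G1, E2f2 was at -1.48 ± 0.58 at the medium and -1.80 ± 0.59 at the high dose, Btg2, an antiproliferative gene, at -0.68 ± 0.29 and -0.88 ± 0.29 at the low and medium dose, and Rbl2, the pocket protein p130, at -0.67 ± 0.25 at the low dose. Skp2, which marks p27 for destruction, was at -0.69 ± 0.29 and Cdk4 at 0.58 ± 0.27 at the high dose. Cdkn1a, the inhibitor p21, was at -0.34 ± 0.76, 0.70 ± 0.74 and 0.96 ± 0.74, and Cdkn1b, p27, at 0.13 ± 0.25, 0.25 ± 0.24 and 0.29 ± 0.24. Neither brake passed the test at any dose.

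Of the growth signals, Mycn had log2 fold changes of 1.39 ± 0.52, 2.03 ± 0.52 and 2.05 ± 0.52, and Ccn2, connective tissue growth factor, was at 2.08 ± 0.50 at the high dose. Ccn1 was at -1.13 ± 0.45 and -1.05 ± 0.44 at the low and medium dose, Hbegf at -1.83 ± 0.79 at the low dose, and Egfr, the receptor of Hbegf, at 1.05 ± 0.42. The hepatocyte mitogen Hgf was at -0.67 ± 0.60, -0.28 ± 0.59 and 0.11 ± 0.59, its receptor Met at -0.10 ± 0.25, -0.31 ± 0.25 and -0.10 ± 0.25, and Myc at 0.04 ± 0.39, -0.22 ± 0.39 and -0.48 ± 0.39. The smallest edgeR adjusted p of the pathway genes named was 0.320, for Ccn2 and Mycn at the high dose.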

How the data were processed

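Bulk RNA sequencing of whole liver from 12 mice (control, low, medium and high, 3 each) was analysed from 1 table. The values are whole-number gene counts, not normalized, as deposited by the authors, with 0 columns left unmatched to a label. Per the submitters' processing notes, fastp 0.23.4, STAR 2.7.10b, StringTie 2.2.1 and the mm39 build were used. The step that made the counts and its strand setting are not given in the sources used here.

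Symbols came from GENCODE M21, which named 91.5% of identifiers; the rest held 0.812% of counts. In R 4.3.3, edgeR 4.0.16 was run on 16839 genes passing filterByExpr, with TMM scaling, robust dispersion and quasi-likelihood tests. Each dose and any difference were tested in 1 fit of all 12 libraries (8 residual degrees of freedom). The slope on mg/kg came from a separate fit to the same 12 libraries. Benjamini-Hochberg adjustment covered all tested genes, with a threshold of 0.05. The fit was also run on simulated counts, and no outcome of that run is given here. It therefore does not show whether a change in the members, most of them rare transcripts, could have been detected. Standard errors were obtained as the absolute fold change over the root of F. Correlations used log2 CPM (prior count 2) and two-sided permutation with 100000 resamples (scipy 1.17.1). Near-identical copies (identity of at least 95% over 80% of length) were found with BLAST+ 2.17.0, and promoter motifs were searched in RefSeq sequence. The correlations with the mitochondrial share and between member pairs were added after the values were seen. Within each group, no library was a copy of another by a chi-square comparison of counts.

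The members, gene lists and tests were chosen with earlier results of these data known. Full statistics are given for the 3 members per direction with the smallest p in each test (3 in all for any difference), for Mki67, Top2a, Cdk1, Ccnb1, Pcna, Mcm2, Ccnd1 and Ccne2, and from each pathway list for the 2 genes per direction with the smallest p at each dose and for Cdkn1a, Cdkn1b, Hgf, Met and Myc. One gene that this rule names is not reported here. Bub1, at 0 in a whole group, is given no fold. Other members are given by their levels, except that folds are also printed for Foxm1, Birc5 and Cenpe, chosen after their values were seen. Alternatives were DESeq2 1.42.0, its size factors, library totals, totals without mitochondrial genes and their near-identical copies, no filter, a replicate block and leaving out each library.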

Additional observations from a re-analysis of the deposited data

How the results depend on the processing

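No member passed the threshold in any of the 18 alternatives run, and of 720 recomputed fold changes for 40 results on named members, 716 kept their direction or changed sign with the values before and after both within their standard errors of 0. DESeq2 called 32 genes at the low dose, 80 at the medium, 157 at the high, 60 for the slope and 149 for any difference, against 0 by edgeR. With library totals the median member log2 fold change was 0.123 at the medium and 0.426 at the high dose, Ccnd1 and Ccne2 at the medium dose turned to 0.0467 and 0.0959, and 1 member correlated with Mki67 past the threshold. With totals that leave out mitochondrial genes the median at the high dose was -0.48. The cause was not tested.

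Leaving out 1 library at a time, the median member value ran from -0.681 to -0.228 at the low dose and from -0.37 to -0.0254 at the medium dose, with the upper ends without control 2, and genes called ran from 0 to 2 at the low dose and from 0 to 1 for any difference, both upper ends without low 3. Rrm2 at the low dose ran from -0.0471 (without low 3) to 1.06, and Kif20a at the high dose from -0.00983 (without high 2) to 3.14. The upper Kif20a value is the one without control 2, where control 1 was the only control library with counts.

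Same-numbered libraries of different groups did not deviate together (median r of -0.0386 over 18 pairs, -0.257 to 0.445, against 0.00823 over 36 pairs with different numbers). With the replicate number as a block, 0 genes were called in each test and the member medians were -0.482, -0.252 and -0.112.

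The rarest members have little depth behind them: 19 of 40 had a library at 0, where 3 counts stood for 0.0278 to 0.117 CPM.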
